A study of Mus musculus with 6 samples.

Results

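The ether lipid synthesis genes described here are 7 genes chosen by symbol from a table of 27179 mouse genes, namely Peds1, Far1, Agps, Gnpat, Selenoi, Pex7 and Pex5. They were grouped after the p-value of Peds1 in the authors' own comparison had been seen, and that comparison is not used for any value below. RNA came from wild-type B16F10 cells, an established mouse melanoma line, treated for 6 h with 0.01% ozonated olive oil (OZO, 3 libraries) or with 0.01% of its precursor olive oil without ozone (OLO, 3 libraries). All libraries share the line, the medium with serum and the presence of an oil. The value analysed for each gene is the authors' average of log2 CPM (counts of a gene scaled to 1000000 counted reads) over the 6 libraries. Because OZO and OLO libraries enter the same average, it gives a level in these cells and no difference between the treatments, and it carries no spread between libraries. No comparison of OZO with OLO was therefore made for these genes.

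Ether phospholipids carry a fatty alcohol on the glycerol backbone through an ether bond, where common phospholipids carry a fatty acid through an ester bond. Plasmalogens are ether phospholipids whose ether bond has a neighbouring double bond, the vinyl ether. Synthesis starts inside peroxisomes and is finished in the endoplasmic reticulum, and ether phospholipids with polyunsaturated chains are among the lipids that can be peroxidised, the reaction that marks ferroptosis. All 7 full gene names in the table fitted the group: 4 lipid enzymes, a selenoprotein with phosphotransferase activity, and a pair of peroxisomal import receptors.

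The melanocyte lineage of the cells was checked by its genes, which cannot tell B16F10 from another line of that lineage. Average levels of Mitf, Pmel, Tyr, Tyrp1, Dct, Mlana and Sox10, genes of the melanocyte lineage, lay between 108.5 and 7052 CPM. Krt5 had no read, Krt14 and Ptprc, markers of keratinocytes and leukocytes, averaged under 1 read per library, and the endothelial gene Pecam1 averaged 1.21 CPM. All 6025 genes without a read share 1 lowest level, 0.0255 CPM, which comes from 0.5 reads added to each count. This level gives a typical library size (geometric mean) of 19641945 reads. It makes 1 CPM equal to 19.6 reads, the added 0.5 included. The depth of single libraries is unknown.

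All 7 members had reads and all averaged well over 1 CPM. In B16F10 cells the median of the members was 106 CPM, whereas the median of the 21154 genes with reads was 2.73 CPM and that of the 11878 genes with at least 1 CPM was 31.6 CPM. Agps had the most reads, at 217.9 CPM, and Pex7 the fewest, at 17.2 CPM. These values scale with transcript length, so the genes were ordered on a second scale, CPM per kilobase (kb) of the longest annotated transcript.

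**Figure D1:**
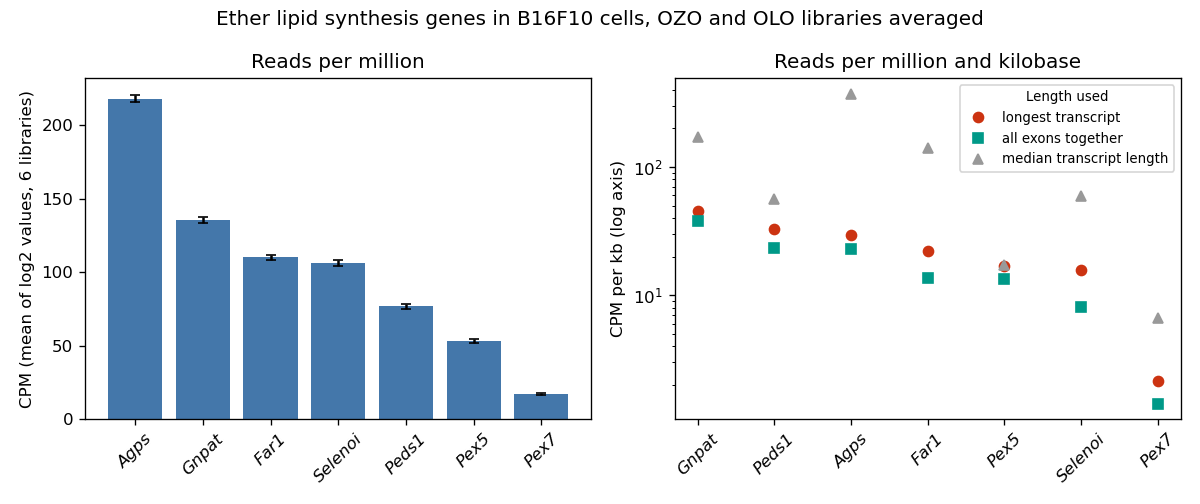
Average levels of the 7 genes in B16F10 cells over 6 libraries, 3 of OZO and 3 of OLO together. Left, CPM with bars from 0 and 95% intervals for counting error only, from 217.9 for Agps to 17.2 for Pex7. Right, CPM per kb on a log axis with the length taken as the longest transcript, all exons together or the median transcript, where Pex7 was lowest with each.

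Synthesis begins with Gnpat, the peroxisomal acyltransferase that loads dihydroxyacetone phosphate with a fatty acid. Gnpat averaged 135.6 CPM (log2 CPM 7.08, with a 95% interval from 7.06 to 7.11 for counting error only), or about 2663 reads per library. Its level lay above that of 91.8% of genes with reads. Per length it was the highest of the 7, at 45.4 CPM per kb of its longest transcript (2984 bases), and also with all exons together, while with the median transcript length it came after Agps (172.1 against 371.9 CPM per kb). The gene lies on chromosome 8 of GRCm38 (mm10) from 124863033 to 124890057 on the plus strand. The noncoding gene Gm16163 on the same strand shares 7.81% of its exon bases and 2810004N23Rik on the opposite strand shares 2.45%, so reads there could be split.

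Agps, the enzyme that exchanges the fatty acid for a fatty alcohol and so creates the ether bond, averaged 217.9 CPM, or about 4280 reads per library. On the log2 CPM scale this was 7.77, with a counting interval from 7.75 to 7.79. Its level lay above that of 95.7% of genes with reads. With the longest transcript, of 7359 bases, Agps came after Gnpat and Peds1, at 29.6 CPM per kb. Agps lies on chromosome 2 from 75832177 to 75931350 on the plus strand, and no exon of another annotated gene overlaps its exons.

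Far1, the peroxisomal membrane enzyme that reduces fatty acyl-CoA to the fatty alcohol used by Agps, averaged 110.0 CPM (log2 CPM 6.78, counting interval 6.76 to 6.81). This was 22.2 CPM per kb of the longest transcript. Its paralogue Far2, which makes fatty alcohols as well, averaged 4.75 CPM and 1.36 CPM per kb, so that Far1 was 16.3-fold higher per length. The ratio was 21-fold with all exons together and 101.5-fold with the median transcript. Far1 lies on chromosome 7 from 113513834 to 113571511 on the plus strand, with 0.993% of its exon bases shared with the antisense gene Far1os.

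Selenoi, a selenoprotein that transfers phosphoethanolamine to the lipid backbone, averaged 106.3 CPM (log2 CPM 6.73, counting interval 6.71 to 6.76). In CPM it was close to Far1, yet it had 15.6 CPM per kb of its longest transcript, which has 6803 bases, of which 17.6% are coding. Cept1, a related transferase that uses both choline and ethanolamine, averaged 14.2 CPM per kb. The Selenoi to Cept1 ratio was above 1 with the longest transcript and 0.63 with all exons together, so neither gene was firmly the higher. Selenoi lies on chromosome 5 from 30232581 to 30272427 on the plus strand.

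Peds1, the desaturase that introduces the vinyl ether bond and thereby turns an ether lipid into a plasmalogen, averaged 76.7 CPM (log2 CPM 6.26, counting interval 6.23 to 6.29), or about 1505 reads per library. Per length it was second, at 32.9 CPM per kb of its longest transcript (2329 bases, the shortest of the 7), but with the median transcript length, at 56.8 CPM per kb, it came after Agps, Gnpat, Far1 and Selenoi. GENCODE release M21 names the gene Tmem189 and places it on chromosome 2 from 167642608 to 167689822 on the minus strand, the same chromosome as Agps. It is the member with the most annotated overlap. A read-through gene, Gm20431, shares 694 of its exon bases on the same strand, or 21.3%, and the transcription factor gene Cebpb shares 312 bases, or 9.56%, on the opposite strand. Of all windows of 100 bases in the longest Peds1 transcript, 26.7% also occur in transcripts of another gene. No row of the table carried the Ensembl identifier of Gm20431, and Cebpb averaged 8.23 CPM. How reads in these shared stretches were assigned was not tested, so the level of Peds1 is less certain than its counting interval shows.

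Pex5 and Pex7 are the cytosolic receptors that bring enzymes into peroxisomes. Pex5 recognises the C-terminal signal, as in Gnpat, and Pex7 recognises the N-terminal signal, as in Agps, and needs a Pex5 isoform to deliver it. Pex5 averaged 53.2 CPM (log2 CPM 5.73, counting interval 5.70 to 5.77) and 16.9 CPM per kb. Pex7 averaged 17.2 CPM (log2 CPM 4.11, counting interval 4.04 to 4.17), or about 338 reads per library, and 2.13 CPM per kb, so that Pex5 was 7.94-fold higher per length. The longest Pex7 transcript has 8099 bases, of which 11.8% are coding, and with the median transcript length the ratio was 2.60-fold. Pex5 lies on chromosome 6 from 124396816 to 124415067 and Pex7 on chromosome 10 from 19853900 to 19907689, both on the minus strand and both without an overlapping exon of another annotated gene.

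**Figure D2:**
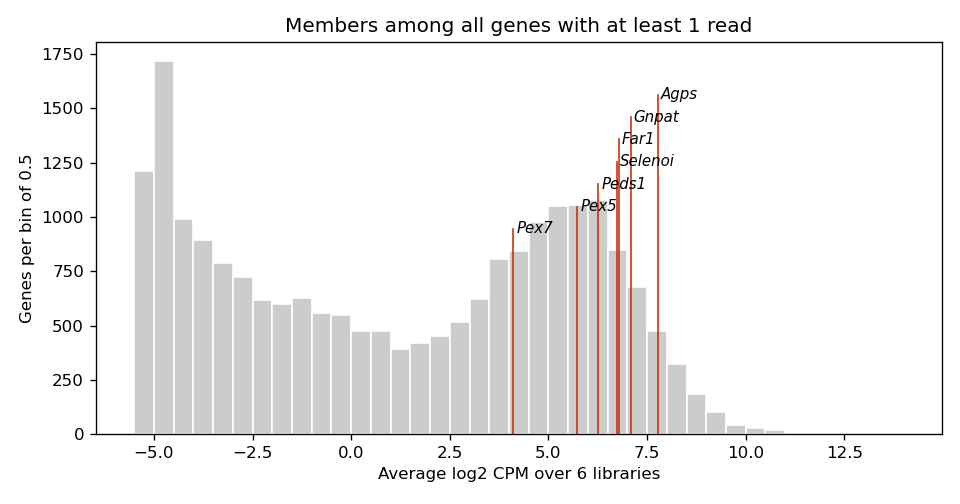
Number of genes with reads (vertical axis) in bins of average log2 CPM over the 6 libraries (horizontal axis), with a line for each of the 7 genes; the height of a line has no meaning. The genes lie between 4.11 for Pex7 and 7.77 for Agps, all to the right of the median of genes with reads (1.45). The median of genes of at least 1 CPM is 4.98, and Pex7 lies to its left.

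In order of CPM per kb of the longest transcript the genes ran Gnpat, Peds1, Agps, Far1, Pex5, Selenoi and Pex7. Neighbouring steps were small at the top. Gnpat was 1.38-fold above Peds1, Peds1 1.11-fold above Agps, Agps 1.34-fold above Far1, Far1 1.31-fold above Pex5 and Pex5 1.08-fold above Selenoi. The 95% counting intervals of all these ratios lay above 1, the lowest being 1.05 to 1.11 for Pex5 over Selenoi, but the spread between libraries was not analysed here. Length matters more than counting error: with all exons together the Peds1 to Agps ratio was 1.02-fold and the Far1 to Pex5 ratio 1.01-fold, and with the median transcript length the Pex5 to Selenoi ratio turned to 0.290 and the Peds1 to Agps ratio to 0.153. The order within these 3 pairs is therefore not firm. With the median transcript length Agps came first and Gnpat second. The last step, Selenoi over Pex7, was 7.34-fold with the longest transcript and 5.68-fold with all exons together, whereas with the median transcript Pex5 stood next to last and was 2.60-fold above Pex7. From the highest to the lowest gene the range was 21.4-fold with the longest transcript and 26.5-fold with all exons together (Gnpat over Pex7), and 55.7-fold with the median transcript (Agps over Pex7). For the successive enzymes Gnpat and Agps, the Agps to Gnpat ratio was 0.652 with the longest transcript, 0.612 with all exons together and 2.16 with the median transcript.

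Other genes of the pathway were grouped in 4 lists, and Pex5 and Pex7 belong to the import list too. In each list the genes with the highest and the lowest level per length are named, while Far2, Cept1 and the further genes named below were chosen after their values were seen. The members had a median of 22.2 CPM per kb, all genes with reads and a known length had 1.87 CPM per kb, and those of at least 1 CPM, as all members were, had 9.92 CPM per kb. With the median transcript length the members had 59.9 CPM per kb and all genes with reads 3.38, and with all exons together they had 13.7 and 1.47.

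Of 18 symbols listed as paralogues or other enzymes of ether lipid synthesis, 17 were found, and all 17 had reads. Ept1 was not found, and it is an older name of Selenoi. Their median was 10.2 CPM per kb. Etnk1, which phosphorylates ethanolamine for the head group, was highest at 67.9 CPM per kb of its longest transcript, where Gnpat had 45.4. With all exons together Etnk1 had 31.5 CPM per kb, below the 37.8 of Gnpat, and with the median transcript 98.3 CPM per kb, below Agps, Gnpat and Far1. Its paralogue Etnk2 was lowest, at 0.0408 CPM or under 1 read per library. Dhrs7b, the reductase that acts after Agps, averaged 10.2 CPM per kb, and Pcyt2, which activates phosphoethanolamine for Selenoi, averaged 8.54 CPM per kb.

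Enzymes that break down ether lipids or plasmalogens were the list with the lowest median, 0.999 CPM per kb over 11 genes, of which 4 averaged under 1 CPM. Without these 4 genes the median was 7.64 CPM per kb, near the 8.16 CPM per kb of the import list limited in the same way. Pafah1b2 was highest, at 44.4 CPM per kb, followed by Pafah1b1 at 40.9 CPM per kb. They encode subunits of an acetylhydrolase for platelet-activating factor, itself an ether lipid, and Pafah1b1 also acts with dynein. Pla2g4a, a cytosolic phospholipase, was lowest, at 0.0367 CPM or about 0.22 reads per library. Agmo, the monooxygenase that cleaves the ether bond of alkylglycerols, averaged 0.0456 CPM, which is under 1 read per library. Tmem86a and Tmem86b, the latter a lysoplasmalogenase, averaged 3.65 and 1.34 CPM. The remaining genes of this list were Pla2g6 at 46.7 CPM, Pafah2 at 24.3, Plaat3 at 1.60, Pla2g7 at 0.394 and Pafah1b3 at 0.179 CPM.

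Within the 17 genes of peroxisomal import and assembly, Pex5 held rank 3 and Pex7 rank 13 per length of the longest transcript. Pex19, the carrier of peroxisomal membrane proteins, was highest at 25.9 CPM per kb of the longest transcript, with Pex2 at 25.9 and, by the other lengths, Pex2 or Pex13 ahead of it. Pex5l, a relative of Pex5 known from neurons, was lowest at 0.164 CPM per kb. Pex13 and Pex14, which form the docking site for cargo-loaded Pex5, averaged 13.6 and 7.62 CPM per kb. The list median was 7.85 CPM per kb, so that Pex5 lay above it and Pex7 below it. Among 16 other peroxisomal genes, with a median of 7.53 CPM per kb, the transporter gene Abcd3 was highest at 54.9 CPM per kb of the longest transcript (29.0 with all exons together, below the 33.6 of Cat, which encodes catalase, and 77.3 with the median transcript, below Hsd17b4, Scp2 and Acsl1) and Acox2, an oxidase of branched chains, lowest at 0.0416 CPM. Acsl4, which activates polyunsaturated fatty acids and is mainly not peroxisomal, averaged 11.9 CPM per kb. These medians describe the lists in these libraries, and no test between them was made.

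**Figure D3:**
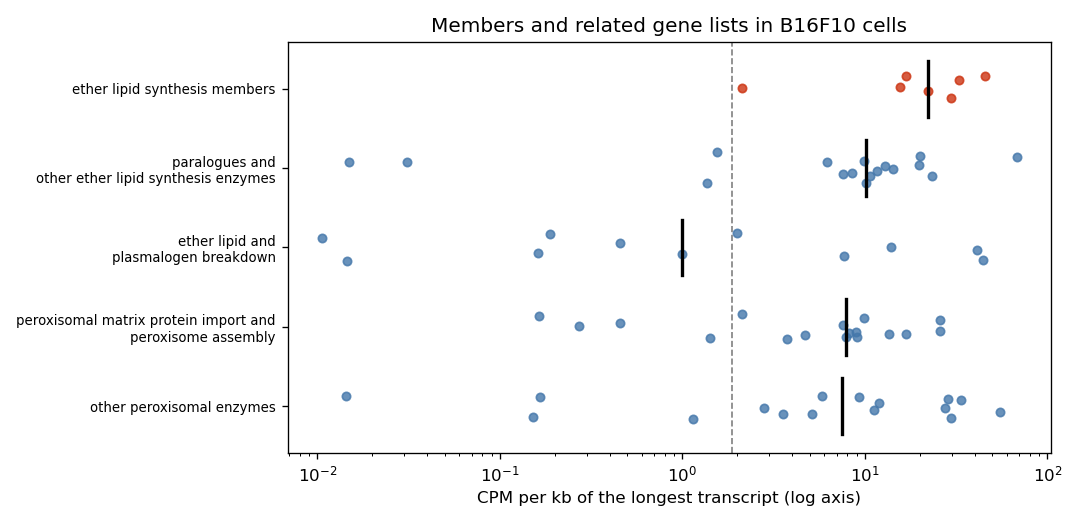
CPM per kb of the longest transcript on a log axis for the 7 members (red) and 4 related lists (blue), 1 point per gene, averaged over the 6 libraries; vertical shifts within a list have no meaning. Black bars mark list medians, from 22.2 for the members to 0.999 for breakdown enzymes (7.64 without the 4 under 1 CPM), and the dashed line marks 1.87, the median of all genes with reads (9.92 for genes of at least 1 CPM).

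Promoter sequences from RefSeq (GRCm38.p6), each covering 250 bases before and 50 bases from the start of transcription, were matched for 6 of the 7 genes, all but Peds1, with 3 start sites for Pex5, of which a pair have overlapping windows, and thus 8 sequences in all. Of the 8 sequences, 8 held more CpG dinucleotides than the median of 7 over 32851 promoters, and 7 had a higher GC content than the median of 52.7%. The sequences printed here are those of the genes with the highest level per length of the longest transcript (Gnpat), the most reads (Agps) and the lowest level on both scales (Pex7). Capitals mark matches, on either strand, to the motif CCAAT, to the GC box core GGGCGG, to the E-box core CACGTG or to the antioxidant response element core TGACNNNGC. The motif TATAAA was searched too.
Gnpat: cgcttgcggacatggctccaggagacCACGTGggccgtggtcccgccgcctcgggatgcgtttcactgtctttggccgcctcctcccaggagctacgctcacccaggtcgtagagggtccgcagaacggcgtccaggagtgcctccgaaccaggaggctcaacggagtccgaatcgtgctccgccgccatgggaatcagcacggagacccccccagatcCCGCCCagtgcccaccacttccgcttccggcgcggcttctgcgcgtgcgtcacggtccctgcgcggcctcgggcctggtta
Agps: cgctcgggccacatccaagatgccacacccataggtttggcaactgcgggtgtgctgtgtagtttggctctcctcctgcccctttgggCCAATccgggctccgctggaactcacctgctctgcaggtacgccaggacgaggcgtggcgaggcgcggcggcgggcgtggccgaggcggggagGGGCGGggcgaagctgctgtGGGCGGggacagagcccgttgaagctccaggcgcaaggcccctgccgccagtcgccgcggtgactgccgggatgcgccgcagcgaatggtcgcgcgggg
Pex7: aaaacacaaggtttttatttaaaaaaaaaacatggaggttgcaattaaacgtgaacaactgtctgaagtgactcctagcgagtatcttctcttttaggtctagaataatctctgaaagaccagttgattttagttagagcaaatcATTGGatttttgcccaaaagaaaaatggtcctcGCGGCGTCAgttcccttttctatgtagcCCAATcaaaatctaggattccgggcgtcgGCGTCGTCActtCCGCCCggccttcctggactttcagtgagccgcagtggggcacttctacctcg
These lie at chr8:124862783-124863082 (plus strand), chr2:75831927-75832226 (plus strand) and chr10:19907625-19907924 (minus strand).

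The Gnpat and Agps promoters had 68.7% and 71% GC with 33 and 32 CpG, while that of Pex7 had 44% GC with 14 CpG and was the only 1 of the 8 under the median GC content. GGGCGG, the core of the GC box, occurred in 7 of the 8 sequences, from all 6 genes, and in 35.7% of all promoters. CCAAT, the box bound by NF-Y, occurred in 6 of the 8 sequences, from 5 of the 6 genes, and in 37.4% of all promoters. It was missing from the Gnpat sequence, and 1 of the 3 Pex5 sequences held neither motif. CACGTG, the E-box core, was found in 1 of the 8 sequences, that of Gnpat, beginning at position -224 relative to the start, and in 7.15% of all promoters. TGACNNNGC, the core of the antioxidant response element bound by NRF2, was found in 1 of the 8 sequences, that of Pex7, at 2 places, and in 12.4% of all promoters. TATAAA was found in 0 of the 8 sequences and in 13.6% of all promoters. The shares over all promoters were not matched for GC content. A match describes letters in these windows and no binding was measured here.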

How the data were processed

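RNA of B16F10 cells treated with OZO or OLO for 6 h (3 libraries each) was sequenced as read pairs on an Illumina instrument after directional library preparation. According to the methods and the submitters' processing notes, reads were aligned to mm10 with HISAT2 (2.1.0), counted with featureCounts (2.1.1) and compared with limma-voom (3.58.1). The strand setting and the annotation used for counting are not given in the sources used here. The deposited table holds, beside gene names, the average log2 CPM per gene over the 6 libraries, to which voom adds 0.5 reads per count, and 5 columns of the authors' own comparison (log2 fold change, moderated statistic, p-value, adjusted p-value and log-odds). Those 5 columns were not used, and no column holds a single library. The planned fits of OZO against OLO need values of single libraries, so they could not be made. Groups were taken from the sample titles.

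CPM was 2 to the power of the average. Library size was derived from the level shared by genes without reads. Counting intervals (95%, Poisson, 1.96 standard errors over 6 libraries of equal depth) cover counting error only. The calculation was tested on simulated data. Lengths and positions came from GENCODE M21 (GRCm38), which held 23906 of the 24126 Ensembl identifiers in the table. Levels per length used the longest transcript. Alternatives were the median transcript, all exons together (added after the values had been seen) and other sets of genes for ranks. All 7 members are named, and of each list the highest and lowest gene. The members and lists were chosen with earlier results of these data known. Python 3.11.15, numpy 2.4.6, pandas 2.3.3 and matplotlib 3.10.9 were used.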

Additional observations from a re-analysis of the deposited data

How the results depend on the processing

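No paired analysis was possible because each gene has only 1 average over all 6 libraries. For the same reason edgeR, DESeq2, a replicate block, leaving out each library, another pseudocount and filters on single libraries were not run. With the median transcript length, which short annotated fragments lower, the levels were 371.9 CPM per kb for Agps, 172.1 for Gnpat, 142 for Far1, 59.9 for Selenoi, 56.8 for Peds1, 17.4 for Pex5 and 6.68 for Pex7, so Agps moved to the top, Peds1 fell behind Far1 and Selenoi, and Pex5 fell behind Selenoi. With all exons together they were 37.8 for Gnpat, 23.5 for Peds1, 23.1 for Agps, 13.7 for Far1, 13.5 for Pex5, 8.09 for Selenoi and 1.43 for Pex7, in the order of the longest transcript. All 14 of these values lay outside the counting interval of the main value. Ranks moved with the genes they were taken among: Agps lay above 95.7% of genes with reads, 96.7% of all genes and 92.4% of genes of at least 1 CPM, and Pex7 above 64.3%, 72.2% and 36.5%. Limited to genes of at least 1 CPM, the median log2 CPM of the breakdown enzymes moved from 0.68 to 4.60, or from 1.60 to 24.3 CPM, close to the 26.5 CPM of the import list. That of the other peroxisomal enzymes moved from 4.51 to 5.97, or from 22.8 to 62.8 CPM, which took it from below to above the paralogue list. The other 3 list medians moved by less than 1.5-fold. Per kb of transcript, the list medians with the longest transcript, the median transcript and all exons together were 22.2, 59.9 and 13.7 CPM for the members. They were 10.2, 20.8 and 5.92 CPM for the paralogues, 7.53, 11.0 and 5.93 CPM for the other peroxisomal enzymes, 7.85, 14.3 and 4.64 CPM for the import list, and 0.999, 1.27 and 0.700 CPM for the breakdown enzymes. The members' median was the highest and the breakdown median the lowest of the 5 lists with each of these lengths, and with all exons together the paralogue list was level with the other peroxisomal enzymes. The all-exon length, and both other lengths for the list medians, were chosen after seeing the data. Depth limits genes under 1 read per library, such as Agmo, Pla2g4a, Etnk2 and Acox2, whose levels rest mainly on the 0.5 reads added.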
